A study of Arabidopsis thaliana with 39 samples.

Results

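AT2G18193, AT4G08555, AT5G22140 and AT5G25930 are 4 Arabidopsis thaliana genes whose transcripts were higher in roots 3 h after transfer to medium lacking both phosphate and iron than in roots 3 h after transfer to full medium. They were chosen by that measured difference. Of 28501 rows on the array, 7 passed the threshold there, a limma adjusted p under 0.05 over all rows, and these 4 are the ones that name exactly 1 gene. Root RNA of accession Col-0 was hybridised to 39 arrays in 13 groups of 3. Plants were grown for 10 days on full medium with 1 mM phosphate, and roots were taken at transfer (time 0) and 3, 6 and 9 h after it. Roots had been moved to medium lacking phosphate and iron (both absent), lacking phosphate only (no phosphate), lacking iron only (no iron), or to full medium. Nothing in the labels ties replicates 1 to 3 to separate cultures, and p-values cover only their spread, which may be technical.

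AT2G18193 is listed as an AAA ATPase, a family of ring-shaped motors that use ATP to unfold or remodel proteins and complexes, and whose BCS1-like branch takes its name from a yeast mitochondrial protein. AT5G22140 is listed as an oxidoreductase, an enzyme class that moves electrons between substrates and cofactors. AT5G25930 is listed as a receptor kinase, a membrane protein with an outer domain for signals and an inner kinase domain. AT4G08555 is protein-coding in RefSeq (assembly TAIR10.1), without a name of its own. Phosphate and iron supply are linked in the root, because phosphate binds iron outside and inside the cell and because roots short of phosphate take up or deposit more iron.

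All values are deposited GCRMA values read as log2, a base inferred from their range of 0.141 to 12.8, and array medians lay between 3.34 and 3.45. The table holds no detection call. Of 12 root markers only EXPA7, an expansin of root hair cells, has a row of its own, at a mean of 5.06 over the 39 arrays. Of 14 shoot markers 3 have one, and none was near 0: RCA, the activase of Rubisco, averaged 6.98, LHB1B2 averaged 6.45 and LHCB4.1 averaged 5.18, the last 2 being light-harvesting proteins. Their summed log2 level ran from 18.4 to 23.1 on the both absent arrays at 3 h and from 15.3 to 22.4 on the full medium arrays at 3 h. These ranges overlap, and the part of shoot transcripts in the differences below was not tested.

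At 3 h the difference between both absent and full medium, which chose the genes and is given as a description, was 2.52 for AT2G18193 (SE 0.41, 5.73-fold), 1.82 for AT4G08555 (SE 0.31, 3.54-fold), 1.06 for AT5G22140 (SE 0.17, 2.09-fold) and 1.00 for AT5G25930 (SE 0.18). Of all rows, 0.0246% passed as higher and 0% as lower. On 4.16% of rows the 3 both absent arrays all lay above the 3 full medium arrays, as they did for these 4 genes. Just inside the threshold lay AT5G25930 (adjusted p = 0.0242) and 2 rows with no gene named (adjusted p = 0.0436 each). Just outside lay KIN2 with a difference of 1.05 (adjusted p = 0.0511), AT4G24160 with 1.11 (adjusted p = 0.0511) and AT2G21640 with 1.04 (adjusted p = 0.0562).

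**Figure D1:**
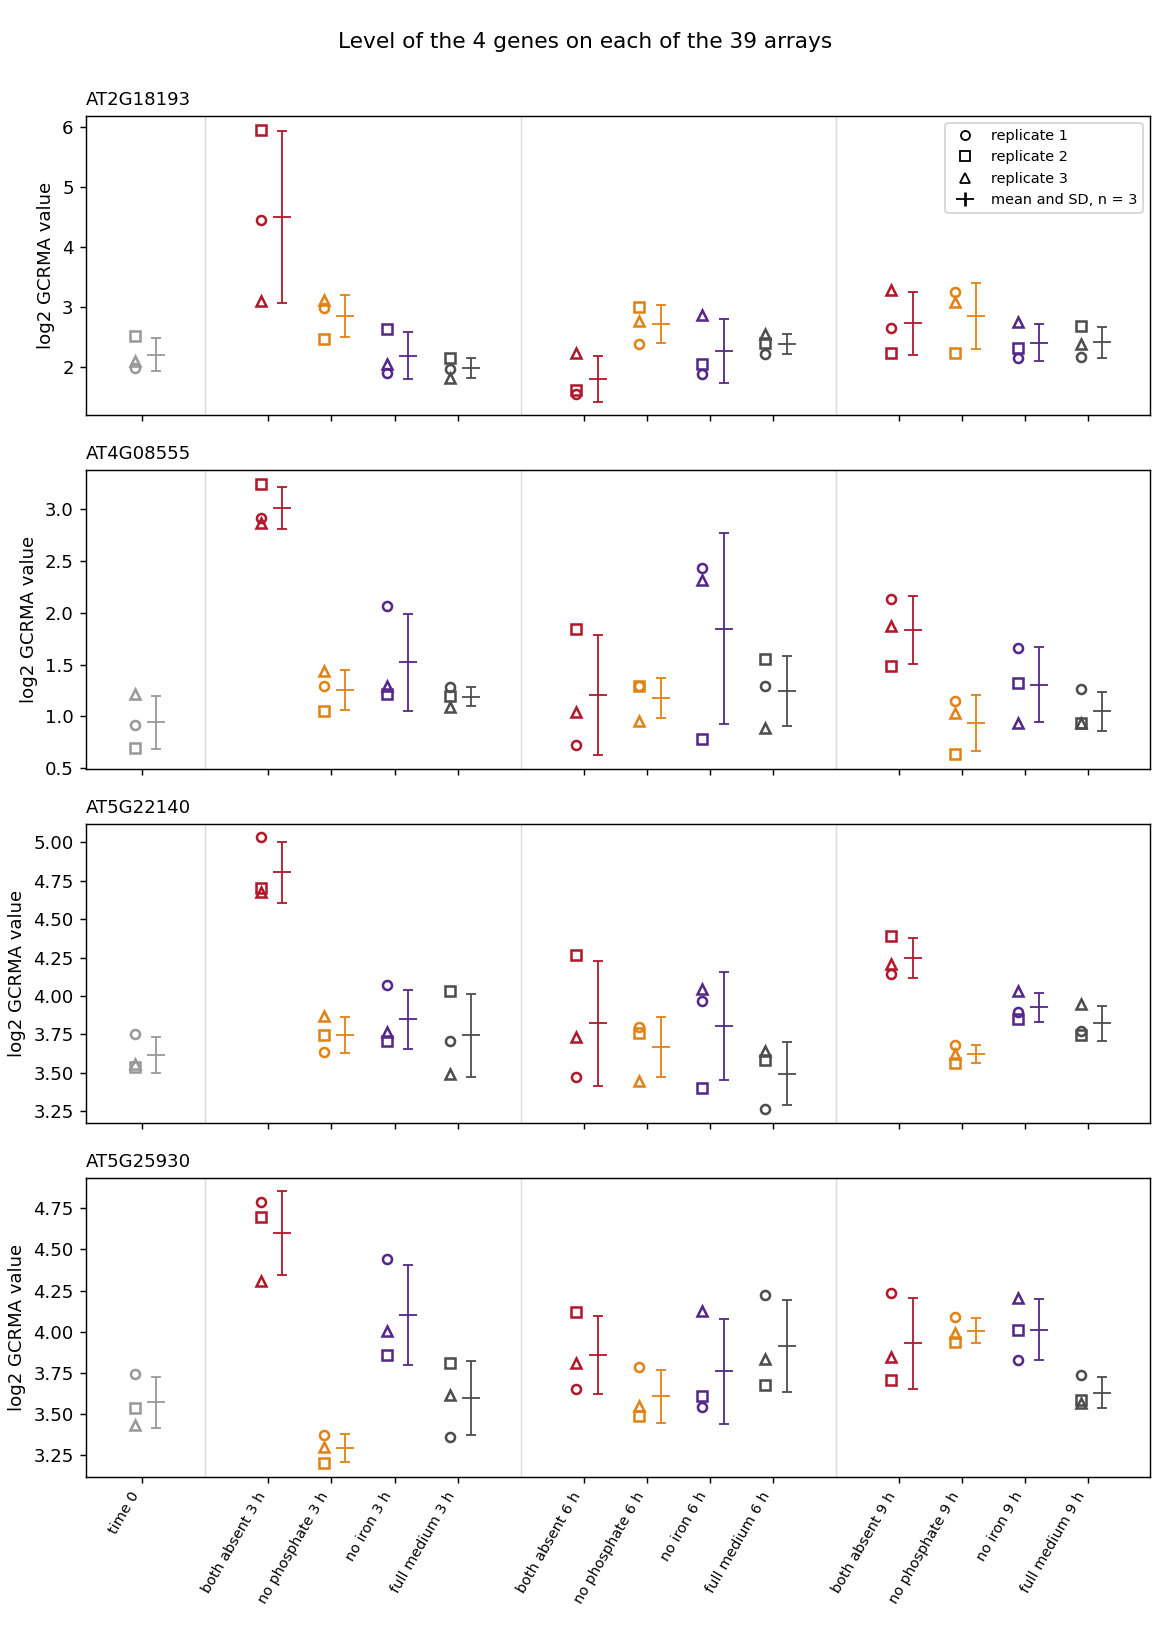
Deposited log2 value of the 4 genes (panels) in the 13 groups along the horizontal axis, with 1 symbol per replicate array and the mean with its SD (n = 3) beside them. For AT4G08555 and AT5G22140 the 3 both absent arrays at 3 h lie above all other arrays, and the 3 values of AT2G18193 in that group spread from 3.10 to 5.95. The choice of the genes favours that separation.

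AT2G18193, the AAA ATPase gene, read 1.99, 2.51 and 2.10 on the 3 arrays at time 0. At 3 h it read 4.44, 5.95 and 3.10 with both absent, 2.98, 2.46 and 3.11 without phosphate, 1.89, 2.62 and 2.05 without iron, and 1.97, 2.15 and 1.81 in full medium. The both absent arrays lay above the no iron and full medium arrays and overlapped the no phosphate arrays. The choice of the gene favours these separations. Their share over all rows was 4.16% against full medium and was not counted against no iron. At 6 h AT2G18193 read 1.55, 1.61 and 2.23 with both absent, 2.38, 2.99 and 2.77 without phosphate, 1.89, 2.04 and 2.87 without iron, and 2.20, 2.39 and 2.54 in full medium. Both absent was then the lowest of the 13 group means, and its arrays lay below those without phosphate, as on 3.82% of rows, and overlapped the other 2 media. At 9 h it read 2.65, 2.23 and 3.28 with both absent, 3.24, 2.22 and 3.08 without phosphate, 2.15, 2.30 and 2.75 without iron, and 2.16, 2.68 and 2.37 in full medium, and all 4 media overlapped. Outside both absent at 3 h, 3 arrays exceeded the lowest array of that group, and no array reached the array medians.

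AT2G18193 also had the widest replicate spread of the 4 genes, 4.50 ± 1.43 (SD, n = 3) with both absent at 3 h against 1.98 ± 0.17 in full medium at 3 h. Its 3 h difference from full medium was 1.79 without replicate 2 of both absent, no longer past the threshold (adjusted p = 0.163 in limma), and 3.22 without replicate 3. The arrays of both refits chose the gene, so they describe its dependence on single arrays and are not a test. The fitted difference of AT2G18193 between no phosphate and full medium at 3 h was 0.87, the largest of the 4 genes for a single deprivation at that time, and 0.21 between no iron and full medium. These use the full medium arrays that chose the gene and were not tested.

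AT4G08555 read 0.92, 0.70 and 1.21 at time 0. At 3 h it read 2.92, 3.25 and 2.87 with both absent, 1.29, 1.05 and 1.44 without phosphate, 2.06, 1.21 and 1.29 without iron, and 1.28, 1.20 and 1.09 in full medium. The 3 both absent arrays lay above all other 36 arrays, while still below every array median, so this is a dim row throughout. The choice of the gene favours that separation, and its share over all rows was not counted. At 6 h it read 0.72, 1.85 and 1.04 with both absent, 1.29, 1.29 and 0.95 without phosphate, 2.43, 0.78 and 2.32 without iron, and 1.29, 1.55 and 0.88 in full medium. All media overlapped, and no iron held 2 high arrays and 1 low one. At 9 h it read 2.14, 1.49 and 1.87 with both absent, 1.15, 0.63 and 1.03 without phosphate, 1.66, 1.32 and 0.94 without iron, and 1.27, 0.94 and 0.94 in full medium. The both absent arrays lay above those without phosphate (as on 5.04% of rows) and in full medium (as on 5.66%), and overlapped those without iron.

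AT5G22140, the oxidoreductase gene, read 3.75, 3.54 and 3.56 at time 0. At 3 h it read 5.03, 4.70 and 4.68 with both absent, 3.63, 3.75 and 3.87 without phosphate, 4.07, 3.71 and 3.76 without iron, and 3.71, 4.03 and 3.49 in full medium. Here too the 3 both absent arrays lay above all other 36 arrays, which the choice of the gene favours. The share of all rows with such a separation was not counted. At 6 h it read 3.47, 4.26 and 3.73 with both absent, 3.80, 3.76 and 3.44 without phosphate, 3.97, 3.40 and 4.05 without iron, and 3.26, 3.58 and 3.64 in full medium, and all 4 media overlapped. At 9 h it read 4.14, 4.39 and 4.21 with both absent, 3.68, 3.57 and 3.62 without phosphate, 3.89, 3.85 and 4.03 without iron, and 3.77, 3.74 and 3.95 in full medium. The both absent arrays lay above, and the no phosphate arrays below, all other arrays of that time. Over all rows, both absent lay above no phosphate on 5.04%, above no iron on 4.41% and above full medium on 5.66%, and no phosphate lay below no iron on 4.93% and below full medium on 3.79%.

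AT5G25930, the receptor kinase gene, read 3.74, 3.54 and 3.44 at time 0. At 3 h it read 4.79, 4.70 and 4.31 with both absent, 3.37, 3.20 and 3.30 without phosphate, 4.44, 3.86 and 4.01 without iron, and 3.36, 3.81 and 3.62 in full medium. Both absent overlapped no iron, and the no phosphate mean was the lowest of the 13 groups. At 6 h it read 3.66, 4.12 and 3.81 with both absent, 3.79, 3.49 and 3.55 without phosphate, 3.54, 3.61 and 4.13 without iron, and 4.22, 3.68 and 3.84 in full medium, and all 4 media overlapped. At 9 h it read 4.23, 3.71 and 3.85 with both absent, 4.09, 3.94 and 3.99 without phosphate, 3.83, 4.01 and 4.20 without iron, and 3.74, 3.59 and 3.57 in full medium. Every single-deprivation array at 9 h lay above the full medium arrays, as on 3.68% of rows for no phosphate and 4.91% for no iron, and both absent overlapped them.

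In the order of the 13 group means, both absent at 3 h came first for all 4 genes, which the choice of the genes favours. Next came no phosphate at 3 h for AT2G18193 (2.85 ± 0.35), no iron at 6 h for AT4G08555 (1.85 ± 0.92), both absent at 9 h for AT5G22140 (4.25 ± 0.13) and no iron at 3 h for AT5G25930 (SD, n = 3 each). Between neighbours in these orders, arrays did not overlap only between the first and second groups of AT4G08555 and AT5G22140, between both absent and no iron at 9 h for AT5G22140, and between time 0 and no phosphate at 3 h for AT5G25930, where no phosphate lay below time 0 as on 6.99% of rows. All other neighbours overlapped.

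The 3 h arrays without phosphate or without iron were compared with each other, since neither group chose the genes. No phosphate minus no iron gave 0.66 for AT2G18193, -0.26 for AT4G08555, -0.10 for AT5G22140 and -0.81 for AT5G25930 (SE 0.18). limma called 0 of the 4 (0.00351% of all rows were called higher and 0% lower). AT5G25930 had an adjusted p of 0.168 (unadjusted p = 8.82e-05), and its no phosphate arrays all lay below its no iron arrays, as on 4.14% of rows. In RNA of whole roots, fewer cells of a type and less RNA per cell cannot be told apart.

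The double deprivation was also set beside the single ones at 3 h, as values only because its arrays chose the genes. Both absent minus no phosphate was 1.65 for AT2G18193, 1.76 for AT4G08555, 1.06 for AT5G22140 and 1.30 for AT5G25930. Both absent minus no iron was 2.31 for AT2G18193, 1.49 for AT4G08555, 0.96 for AT5G22140 and 0.50 for AT5G25930. The excess of both absent over the sum of the single deprivations, each taken against full medium, was 1.44, 1.42, 0.95 and 0.80 in the same order of genes. That interaction was added after the data had been seen and uses the choosing arrays, so it is not tested.

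Against time 0, with no test, both absent at 3 h was higher by 2.30 for AT2G18193, 2.07 for AT4G08555, 1.19 for AT5G22140 and 1.02 for AT5G25930. Full medium at 3 h differed from time 0 by -0.22, 0.25, 0.13 and 0.02 in the same order. Between 3 and 6 h in both absent the difference was -2.70 for AT2G18193, -1.81 for AT4G08555, -0.98 for AT5G22140 and -0.74 for AT5G25930. Between 3 and 9 h it was -1.77, -1.18, -0.56 and -0.67, so the 9 h means lay between those of 6 and 3 h for all 4 genes.

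**Figure D2:**
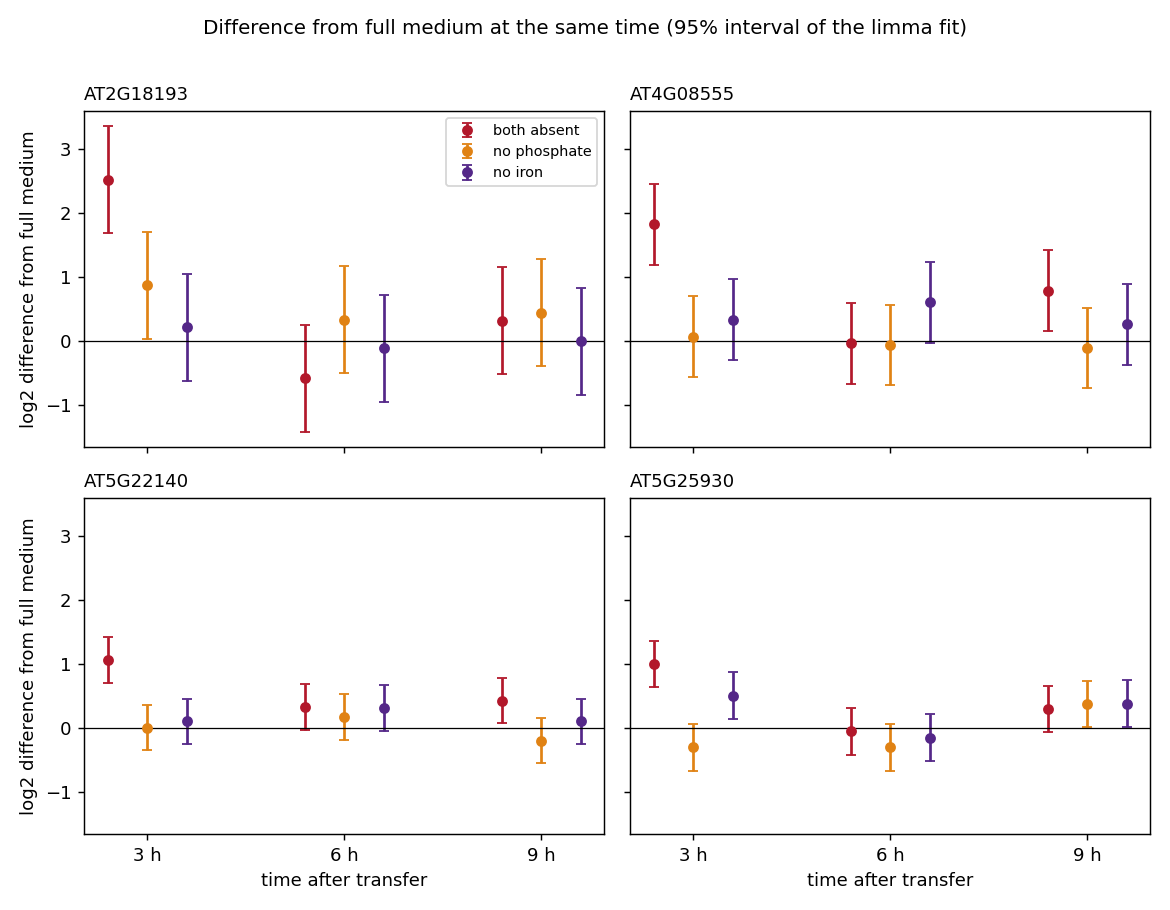
Log2 difference from full medium at 3, 6 and 9 h (horizontal axis) for both absent, no phosphate and no iron, with the 95% interval of the limma fit over 39 arrays. The both absent points at 3 h, 1.00 to 2.52, chose the genes, and at 6 and 9 h no difference passed the test.

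At the times whose arrays did not choose the genes, deprivation against full medium gave no call. limma called 0 of 24 differences (4 genes, 3 media, 6 and 9 h), 4 of them with an unadjusted p under 0.05 and all 4 higher. Such a p, in either direction, was found on 565 to 1190 of the 28501 rows per comparison. Among all rows at these times 0% to 0.00702% were called higher and 0% lower. Both absent minus full medium at 6 h was -0.59 for AT2G18193 (95% interval -1.42 to 0.25), -0.04 for AT4G08555 (-0.67 to 0.59), 0.33 for AT5G22140 (-0.03 to 0.68) and -0.05 for AT5G25930 (-0.42 to 0.31). At 9 h it was 0.32 for AT2G18193 (-0.52 to 1.15), 0.79 for AT4G08555 (0.15 to 1.42), 0.43 for AT5G22140 (0.07 to 0.78) and 0.30 for AT5G25930 (-0.07 to 0.66).

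For AT4G08555 and AT5G22140 the 3 both absent arrays at 9 h all exceeded the 3 full medium arrays, as on 5.66% of rows, yet the adjusted p was near 1 (unadjusted p = 0.0164 for AT4G08555 and 0.0202 for AT5G22140). AT5G25930 was higher at 9 h by 0.37 without phosphate and by 0.38 without iron than in full medium, with an adjusted p near 1 for both (unadjusted p = 0.0447 and 0.0406). At 3 h, set beside this and not tested, no phosphate minus full medium had been -0.30 and no iron minus full medium 0.50 for this gene.

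Double against single deprivation at 6 and 9 h likewise gave 0 calls in 16 tests by limma, with 4 unadjusted p under 0.05, against 0% to 0.00351% of rows called higher and 0% lower. An unadjusted p under 0.05, in either direction, was found on 730 to 1029 of the 28501 rows per comparison. At 9 h both absent exceeded no phosphate by 0.90 for AT4G08555 (SE 0.31, unadjusted p = 0.00684) and by 0.63 for AT5G22140 (SE 0.17, unadjusted p = 0.00114), with all 3 arrays above in each, as on 5.04% of rows. At 6 h AT2G18193 stood 0.92 lower with both absent than without phosphate (SE 0.41, unadjusted p = 0.0329), and AT4G08555 stood 0.64 lower with both absent than without iron (SE 0.31, unadjusted p = 0.0456). The adjusted p of all 4 was near 1. The interaction over 6 and 9 h ran from -0.46 for AT2G18193 to 0.18 for AT5G22140 and was called for 0 of 4 genes by limma (0 with an unadjusted p under 0.05), with 0% of rows called either way.

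Single deprivations compared with each other at 6 and 9 h gave no call either (0.0105% of rows called higher and 0% lower at 9 h, 0% either way at 6 h). AT4G08555 stood 0.67 lower without phosphate than without iron at 6 h (SE 0.31, unadjusted p = 0.0383). Over all 3 times this is 0 of 12 tests by limma, with 2 unadjusted p under 0.05. Such a p, in either direction, was found on 839 to 1644 of the 28501 rows at each time.

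Levels after transfer were compared with time 0 in 10 groups whose arrays did not choose the genes. These comparisons share the 3 time 0 arrays. limma called 0 of 40 differences, 6 with an unadjusted p under 0.05, all higher, while 0.428% to 0.898% of rows were called higher and 0.221% to 0.839% lower. An unadjusted p under 0.05, in either direction, was found on 2445 to 3271 of the 28501 rows per comparison. The lowest adjusted p of all 104 tests was for AT5G22140, 0.63 higher with both absent at 9 h than at time 0 (SE 0.17, adjusted p = 0.0566). Its 3 both absent arrays at 9 h, 4.14, 4.39 and 4.21, lay above its time 0 arrays, 3.75, 3.54 and 3.56, as on 7.79% of rows. With the replicate number as a block the adjusted p was 0.0495, with array weights 0.0483 for a difference of 0.59, and over the brighter rows 0.0374, so this call turns on the setting.

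AT4G08555 stood 0.89 higher with both absent at 9 h than at time 0 (SE 0.31, adjusted p = 0.178), and array weights called it at 1.00 (adjusted p = 0.0393). Without iron at 6 h it stood 0.90 higher than at time 0 (SE 0.31, adjusted p = 0.207). Replicate 2 decides that value: without it the difference was 1.44 and passed the test (adjusted p = 0.00407). AT5G25930 stood higher than at time 0 by 0.53 without iron at 3 h (adjusted p = 0.205), by 0.44 without iron at 9 h (adjusted p = 0.33) and by 0.43 without phosphate at 9 h (adjusted p = 0.386). In these 3 groups 0.561%, 0.712% and 0.667% of rows were called higher, in that order, and 0.302%, 0.639% and 0.611% lower. AT2G18193 had no difference from time 0 with an unadjusted p under 0.05 in these 10 groups.

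Over time, 9 h minus 6 h averaged over the 4 media was 0.21 for AT5G22140 (SE 0.09, adjusted p = 0.351), the only one of 8 time tests with an unadjusted p under 0.05. limma called 0 of the 8, against 0.274% of rows higher and 0.105% lower for 9 h minus 6 h. For 6 h minus 3 h over the single deprivations, 0.0632% of rows were called higher and 0.13% lower. An unadjusted p under 0.05, in either direction, was found on 3280 of the 28501 rows for 9 h minus 6 h and on 2014 for 6 h minus 3 h.

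Between group means, Pearson's r was 0.57 to 0.91 over the 13 group means, which all share the high both absent group at 3 h. Over the 11 groups without both absent and full medium at 3 h it was -0.26 to 0.66, and lower for each of the 6 pairs. Within groups this was not so for each pair. The deviations of AT4G08555 and AT5G22140 from their group means correlated at 0.63 over the 33 arrays of those groups, against 0.55 over all 39. Those of AT4G08555 and AT5G25930 gave 0.42 over 33 and 0.38 over 39, and those of AT5G22140 and AT5G25930 gave 0.34 and 0.39. Spearman's rank correlation over the 33 arrays was lower for these pairs, at 0.44, 0.34 and 0.22 in that order. By Pearson's r, AT2G18193 gave 0.02 to 0.09 with the other 3 over 33 arrays and 0.05 to 0.24 over 39. By rank it gave -0.10 to 0.16 over the 33 arrays. These correlations are descriptions, and arrays of 1 replicate number share deviations over all rows.

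The measured genes next to these 4 on the chromosome, several of them dim, showed no such difference. Of 16 genes up to 2 places away in RefSeq order, 10 have a row of their own, and their 3 h differences between both absent and full medium ran from -0.30 to 0.24. AT2G18190, directly beside AT2G18193 and on the same list of AAA ATPases, differed by -0.11 there. Row means of the measured neighbours over the 39 arrays ran from 1.46 to 7.35. AT2G18190 averaged 1.60, and the measured neighbours of AT4G08555 averaged 1.46 and 1.94. Rows this dim may hide a difference.

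Lists of related genes were set beside the 4, each chosen with earlier results of these data known. Of 188 listed genes 63 have a row of their own. limma called 0 of these 63 between both absent and full medium at 3 h, where 0.0246% of rows were called higher, and 12 had an unadjusted p under 0.05 and were higher (4.61% of all rows had such a p in either direction). The median difference of all rows was -0.01. The list comparisons at 3 h use arrays that chose the 4 genes, so their counts are descriptions and do not test the lists. The 20 measured BCS1-like AAA ATPases other than AT2G18193 had a median of 0.04 and ran from -0.46 to 0.65. Most of these 20 rows were dim, with means over the 39 arrays of 0.88 to 1.93, which limits what they can show. The 7 measured LRR subfamily XI receptor kinases, a subfamily that holds many peptide receptors of plants, had a median of -0.18 and ran from -0.50 to 0.31. The 4 measured genes of pattern-triggered immunity, which include the bacterial elongation factor receptor EFR at 0.14 and the kinase BIK1 at 0.01, had a median of 0.08.

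Other lists stood further above the median of all rows. The 6 measured genes of the xenobiotic and oxidative stress list, which encode enzymes that conjugate or reduce reactive compounds, had a median of 1.05 with both absent at 3 h, against 0.31 without phosphate and 0.19 without iron. All 6 lay above 0 in both absent, where 47.8% of all rows did, and 5 of them had an unadjusted p under 0.05. The list was chosen with earlier results known, so these counts are descriptions. Against time 0, as values only, both absent at 3 h differed by 2.15 for UGT73B3, 1.98 for UGT73B4, 1.60 for UGT73B2 and 1.50 for GSTU25, and the median of the 6 was 1.55. The UGT73B genes, glycosyltransferases, are close copies of each other, so their rows may share signal. With full medium at 3 h the median difference of the 6 from time 0 was 0.49. Both comparisons share the time 0 arrays. The xenobiotic list's median against full medium was -0.05 at 6 h and 0.54 at 9 h.

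The 8 measured genes of the mitochondrial stress list, named for transcripts known to respond when respiration is disturbed, had a median of 0.64 with both absent at 3 h, against 0.05 without phosphate and 0.04 without iron. All 8 lay above 0, 4 had an unadjusted p under 0.05, and limma called 0, again as a description. AT2G21640 stood at 1.04, AT2G04050 at 0.89 (adjusted p = 0.435), AT5G51440 at 0.86 and AT2G41380 at 0.82. AT2G04050 is a dim row, at a mean of 1.11 over the 39 arrays. At 3 h it differed from time 0 by 0.41 with both absent and by -0.48 in full medium. A further list joined alternative NAD(P)H dehydrogenases, enzymes that feed electrons into respiration without pumping protons, with AT3G44190, listed as a relative of AT5G22140. Its 5 measured genes had a median of 0.27. The highest was the relative AT3G44190 at 0.79 (adjusted p = 0.519), and NDB4 was the highest of the dehydrogenases at 0.44. NDB2 and NDB4 are also on the mitochondrial stress list.

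**Figure D3:**
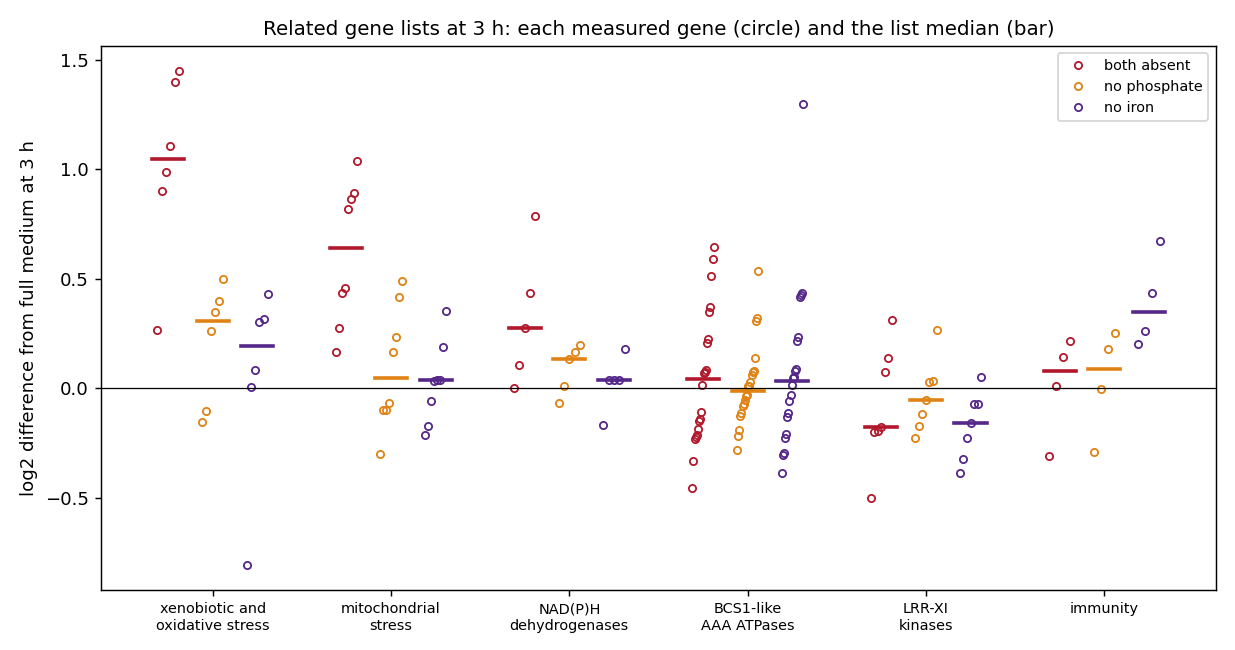
Log2 difference from full medium at 3 h for each measured gene (circles) of 6 lists along the horizontal axis, with the list median as a bar, for both absent, no phosphate and no iron. The both absent medians are 1.05 for the xenobiotic list and 0.64 for the mitochondrial list, and -0.18 to 0.27 for the other 4 lists.

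None of the 18 listed phosphate starvation genes has a row of its own. The 8 measured iron deficiency genes, among them the regulators BHLH101 at -0.20 and PYE at -0.30, had a median of -0.09 with both absent at 3 h, and limma called 0, also at an unadjusted p under 0.05. Most of these 8 rows were dim, with means over the 39 arrays of 1.24 to 1.77, BHLH101 among them at 1.44, which limits what they can show. PYE averaged 4.35. Without iron at 9 h, limma called AT1G47395 1.46 higher than at time 0 (adjusted p = 0.00927), where 0.712% of rows were called higher. Against full medium at 9 h, no iron had 0% of rows called either way, so AT1G47395 was not called there. Its row is dim, at a mean of 1.56 over the 39 arrays. The 2 measured touch-response genes, STZ at 0.58 and AT4G29780 at 0.72, had a median of 0.65 with both absent, -0.03 without phosphate and 0.58 without iron. The 2 measured low-oxygen genes had a median of 0.07 with both absent, -0.01 without phosphate and 0.66 without iron. The 3 measured shoot markers differed by 0.66 for RCA, 0.52 for LHB1B2 and 0.44 for LHCB4.1, with standard errors of 0.67 to 0.82, and EXPA7 by 0.39.

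The rows naming 1 gene whose pattern was most like each of the 4 were taken by Pearson's r over the 13 group means, both absent at 3 h among them. For AT2G18193 these were AT5G17000 (r = 0.90), AT3G44190 (0.87) and AT4G12980 (0.87). For AT4G08555 they were AT4G24160 (0.92), AT5G43420 (0.91) and AT5G22140 (0.91), and for AT5G22140 they were AT4G24160 (0.94), AT5G59450 (0.93) and AT5G17000 (0.91). For AT5G25930 they were WRKY42 (0.88), a transcription factor, GT72B1 (0.85), a glycosyltransferase, and AT5G57010 (0.85). AT4G24160 thus led for 2 of the 4 genes, and it lay just outside the threshold of the choosing comparison.

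Without both absent at 3 h, over 12 group means, other rows led for 3 of the 4 genes: AT3G53390 (0.89), AT2G46308 (0.86) and OTP80 (0.86) for AT2G18193, AT3G19540 (0.90), AT4G26020 (0.90) and AT2G13960 (0.89) for AT5G22140, and AT2G43120 (0.91), WRKY6 (0.90) and AT2G20142 (0.90) for AT5G25930. For AT4G08555 the leaders were SD1-29 (0.89), AT5G43420 (0.89) and AT1G76600 (0.88), AT5G43420 being shared with the first list. All leaders are the highest of 16746 rows over few group means, so a high r is favoured by the search. Within groups, the leaders over 12 means had an r with their gene of only -0.31 (AT2G43120) to 0.45 (AT1G76600). Array by array, AT2G18193 went most with AT2G04050, at r = 0.77 over 39 arrays and 0.42 over the 36 arrays without both absent at 3 h. AT2G04050 is a dim row, at a mean of 1.11 over the 39 arrays. With both absent at 3 h it read 1.67, 2.64 and 1.14, highest on replicate 2 as AT2G18193 was.

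**Figure D4:**
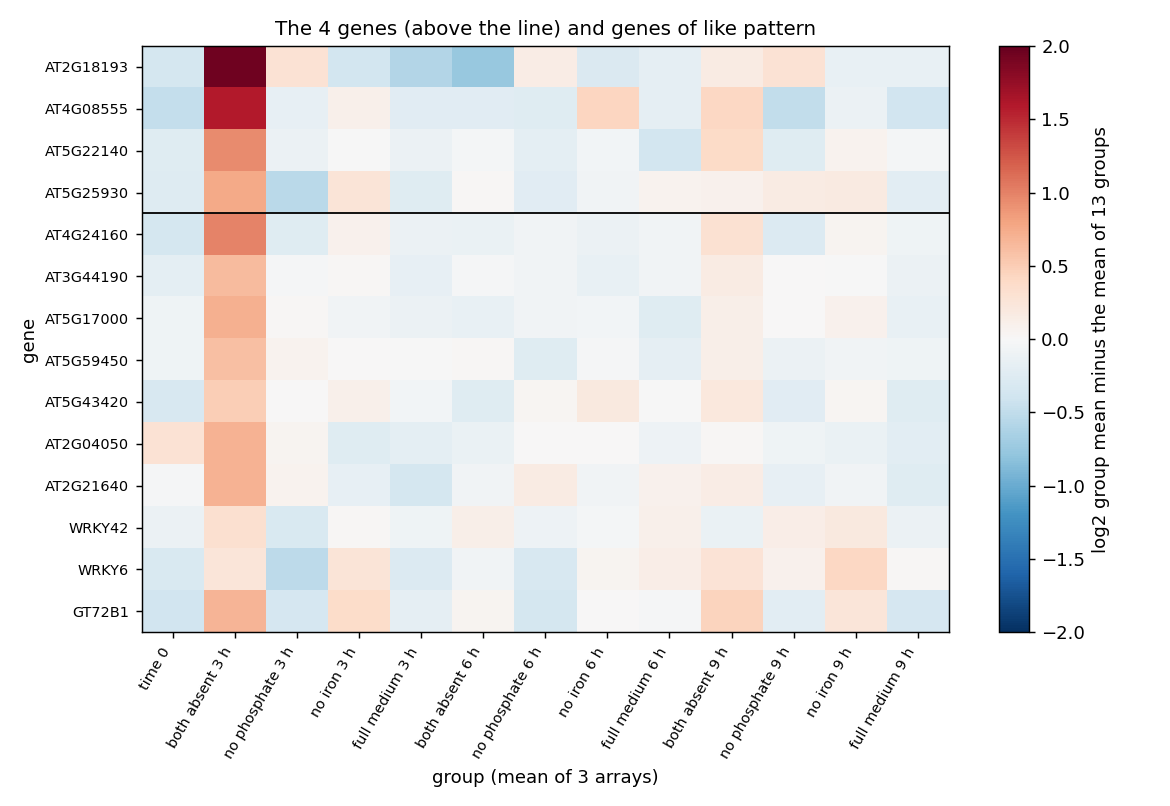
Group means of the 4 genes (above the line) and of 10 genes of like pattern or on the lists, as log2 differences from each gene's own mean over the 13 groups along the horizontal axis. The both absent column at 3 h is the darkest for each of the 4 genes, and both absent at 9 h lies above the gene's own mean for each of them.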

How the data were processed

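The authors' deposited table gives 1 log2 value per array and row, from 100 ng of total RNA per sample. GCRMA, Transcriptome Analysis Console and Affymetrix Expression Console are named, without their roles, per the submitters' processing notes. Versions and the log base are not given in the sources used here. Rows were named through the platform annotation. Of all rows, 16746 name a single gene, 758 name several and 10997 are unnamed. Symbols came from RefSeq (TAIR10.1).

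All 39 arrays entered 1 limma fit (limma 3.58.1, R 4.3.3, lmFit and eBayes) with 13 group means and 26 residual degrees of freedom. The Benjamini-Hochberg method adjusted each contrast over all 28501 rows. limma was tested on simulated data. A call needed an adjusted p under 0.05. The members and lists were chosen with earlier results of these data known, so for the 4 genes contrasts with the arrays of both absent or full medium at 3 h are values only, and 26 contrasts were tested. Named were the 4 genes, their neighbours, up to 4 genes per list and comparison, the 3 most alike rows, and, after their values were seen, AT2G04050 over arrays and genes near the threshold. Alternatives were quantile normalization, brighter rows only, the replicate block, compared groups alone, array weights, a trend in eBayes and leaving out arrays. The number of arrays limits the precision.

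Replicate numbers come from the sample titles. Deviations from the group means correlated at 0.26 on average between arrays with the same number and at -0.13 between other numbers, and 37 of 39 arrays went best with arrays of their own number. Deviations cancel within each group, so the -0.13 largely follows from the 0.26. Every pair exceeded 0.1 in 15 of the 23 tested contrasts of 2 groups, both absent at 9 h against time 0 among them.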

Additional observations from a re-analysis of the deposited data

Results flagged for a closer look

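For AT5G25930 at 3 h, every no phosphate array lay below, and every no iron array above, the mean of full medium. Array by array, no phosphate overlapped full medium, and the share of all rows with this pattern was not counted. The full medium arrays at 3 h are among those that chose the gene, so that pattern is a description. No phosphate minus no iron was -0.81 (limma adjusted p = 0.168), and the no phosphate arrays all lay below the no iron arrays, as on 4.14% of rows. Both absent minus no phosphate was 1.30, a value that uses the arrays that chose the gene and was not tested. For AT5G22140 at 9 h, every no phosphate array lay below the full medium mean and every both absent and no iron array above it. Array by array, no iron overlapped full medium, and the share of all rows with this pattern was not counted either. Both absent minus no phosphate was 0.63 and no phosphate minus no iron was -0.30, and limma called neither, with an adjusted p near 1 for both. Over all rows, both absent lay above no phosphate on 5.04% and no phosphate below no iron on 4.93%.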

How the results depend on the processing

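In 26 tested contrasts 0 of the 4 genes were called, and no alternative changed that count in 24 of them. With both absent at 9 h against time 0 it was 1 with the replicate block, 1 over the brighter rows (which drop AT2G18193 and AT4G08555) and 2 with array weights. With no iron at 6 h against time 0 it was 0 to 1 when arrays were left out, 1 without replicate 2 of no iron. The replicate block changed that 1 call, AT5G22140 at an adjusted p of 0.0495 against 0.0566, and no other. Signs turned when arrays were left out for both absent minus full medium at 6 h, from -0.36 to 0.20 for AT4G08555 and -0.18 to 0.10 for AT5G25930, and for no phosphate minus no iron at 3 h, from -0.42 to 0.0080 for AT4G08555 and -0.17 to 0.011 for AT5G22140. Of 1364 refitted values, 87 changed sign, none larger than 0.26 in the fit of all arrays. In a limma fit of the 6 choosing arrays alone, AT4G08555 stayed past the threshold (adjusted p = 0.0428) and the other 3 did not. These arrays chose the genes, so that refit is a description and does not test any of them. The causes were not tested. AT4G08555 lay below the median of every array, and 3 arrays a group limit what small differences can be seen.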
